A study of Mus musculus with 6 samples.

Results

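The genes described here encode the machinery that copies DNA: 48 genes for origin licensing, the replicative helicase, the DNA polymerases, the sliding clamp and lagging-strand enzymes, chromatin assembly and the factors E2F1 and E2F2. They were taken by name from a list, and each was read from the probe set that carried its symbol alone, taking the brightest on average over the 6 arrays where a gene had more than 1. All 48 of 48 were on the array, among 19938 genes in all, and all 48 passed the filter on dim genes (a mean log2 value of at least 7.35). Only Pcna and Rpa3 had 2 probe sets.

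RNA was profiled on 6 mouse Affymetrix arrays, with 3 arrays in each of 2 groups. Both groups were pre-B cells of strain C57BL/6 that had been transformed with BCR-ABL1, a constitutively active tyrosine kinase fusion that drives a form of acute lymphoblastic leukaemia, and both carried the genotype Inpp5d fl/fl. Inpp5d encodes the lipid phosphatase SHIP1. The first group was transduced with PMIP-CRE-ERT2, a Cre recombinase that tamoxifen switches on, and the second with PMIP-ERT2, the tamoxifen-binding domain without Cre. All cells received 4OH-Tamoxifen at 0.5 micromolar for 2 days, and the cells profiled were those resistant to puromycin. No group had Cre without floxed alleles, and none went without tamoxifen, so effects of Cre activity and of loss of Inpp5d cannot be told apart. Whether the 3 arrays of each group stand for independent cultures is not stated in the labels, and the p-values therefore reflect only how these arrays differ, which may be technical.

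DNA replication starts at origins, where the origin recognition complex (ORC) together with CDC6 and CDT1 loads the MCM complex, the core of the helicase. The kinase CDC7 with its activator DBF4 then lets CDC45 and the GINS complex join MCM, and the active helicase opens the strands for the polymerases. Many of these genes are switched on by E2F factors as a cell commits to S phase, and they are highly expressed in proliferating cells such as transformed pre-B cells.

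The targeted gene did not fall with the label: the log2 value of Inpp5d was 13.20, 13.21 and 13.17 in the ERT2 control arrays and 13.37, 13.34 and 13.34 in the Cre-labelled arrays (limma adjusted p = 0.0545). Which exons its probe set covers could not be told from the files, and a probe set outside the deleted part checks nothing. Groups are therefore named by their labels, as ERT2 controls and Cre-labelled arrays. The 9 pre-B cell markers analysed had a median log2 value from 13.5 to 13.7 across arrays, with 0 called by limma in either direction (0 at an unadjusted p under 0.05). Of the markers of other cells, 3 of 10 myeloid genes, 3 of 9 T and NK genes, 4 of 7 erythroid or megakaryocyte genes and 6 of 10 stromal genes on the array passed the filter on dim genes. The median over the myeloid list ranged from 7.18 to 7.26 in the controls and from 7.26 to 7.34 in the Cre-labelled arrays, and that over the stromal list from 7.48 to 7.54 and from 7.57 to 7.74. Dim genes lay higher in general. Over all genes tested with a mean log2 value from 7 to 8, median deviations from the control mean were 0.12, 0.18 and 0.046 on Cre-labelled arrays 1, 2 and 3. The only one of these marker genes to pass the test was the lysozyme gene Lyz2, which rose from 9.24 ± 0.14 to 10.04 ± 0.18 (SD, n = 3) on the log2 scale (limma adjusted p = 0.00588). At an unadjusted p under 0.05, 2 T and NK genes (Cd4 and Cd8a) and 3 stromal genes (Col1a2, Col3a1 and Pdgfrb) were higher as well, and 0 erythroid or megakaryocyte genes reached that level. Among all 14953 genes tested, 2842 were higher at that level. The part of such cells in the results below was not tested. In bulk RNA, fewer cells in S phase and less of these RNAs per cell cannot be told apart. Pearson's r between arrays, across probe sets, ranged from 0.988 to 0.997.

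The replication genes lay slightly lower in the Cre-labelled arrays, and 5 of the 48 fell by the test: Fen1 (flap endonuclease), Rfc3 and Rfc2 (clamp loader), Gins1 (helicase) and Orc2 (origin recognition). Of the other members, 43 did not pass, and 0 were higher (0 also at an unadjusted p under 0.05). At that unadjusted level of limma, 20 members were lower (41.7%), against 14.4% of all genes tested. Over all 14953 genes tested, limma called 1140 (7.62%) at a Benjamini-Hochberg adjusted p under 0.05, 617 lower (4.13%) and 523 higher (3.5%), against 10.4% of the members lower. The median log2 difference was -0.11 over the members and 0.026 over all genes tested, and 44 of 48 members had a difference below 0 (91.7%, against 43.4% of all genes). All 3 Cre-labelled arrays lay below all 3 controls for 28 members, or 58.3% (17.7% of all genes tested), and above them for 0 members (20.7% of all genes). Members and lists were chosen with earlier results of these data known, so these counts describe the genes and carry no test of their own. The changes were small: the largest fall left 73.9% of the control value.

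**Figure D1:**
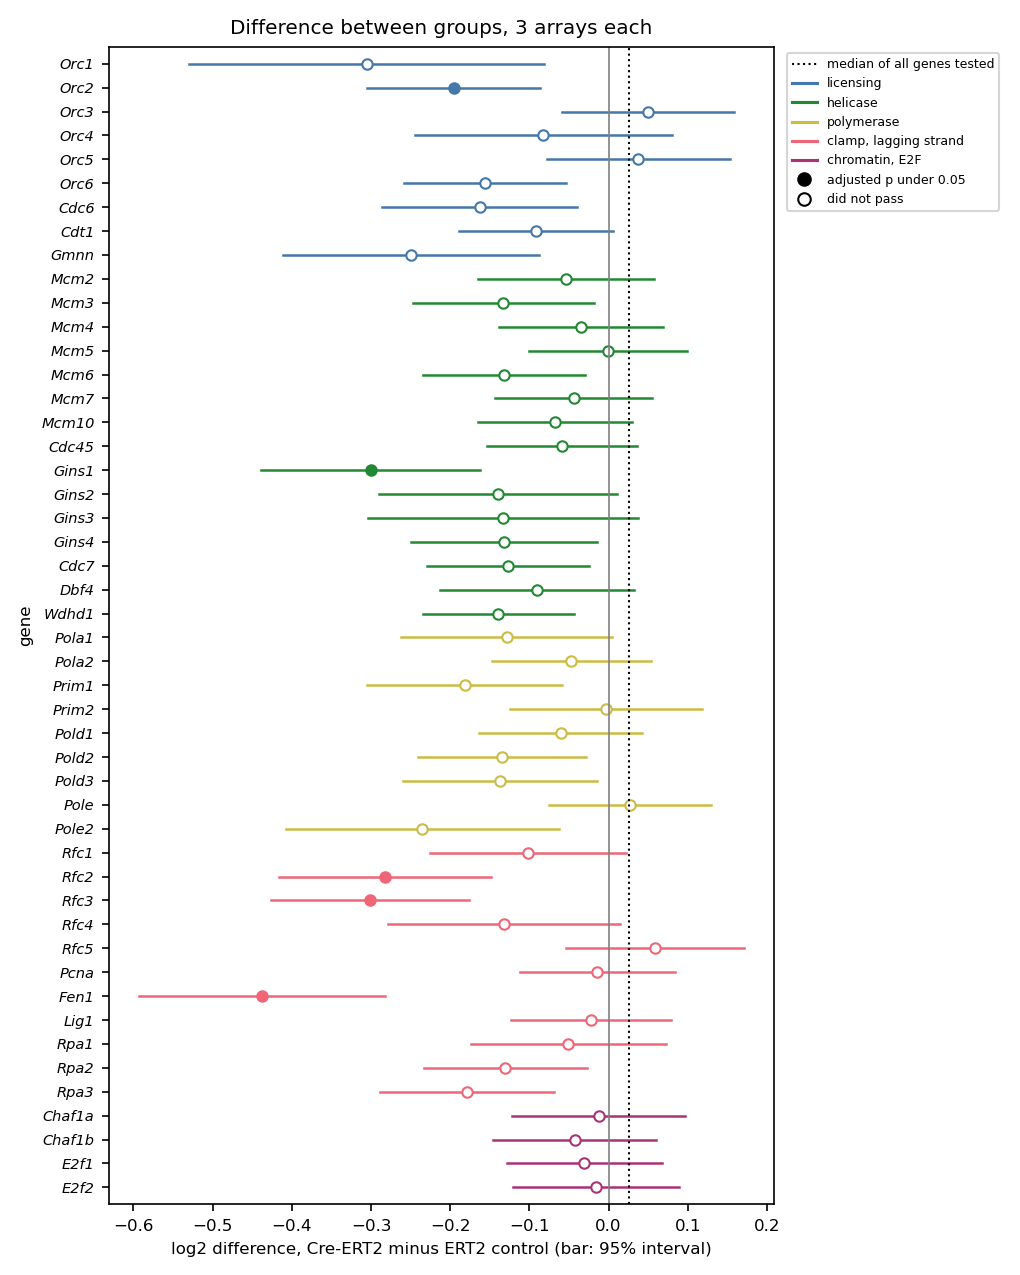
Log2 difference between the Cre-labelled arrays and the ERT2 control arrays (x axis) for each of 48 replication genes (y axis), with the 95% interval of the limma fit as a bar and colour for the role group. Filled points mark the 5 members with an adjusted p under 0.05; 44 of 48 points lie below 0, and the dotted line marks the median of all genes tested, 0.026.

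Cre-labelled array 2 was the lowest of its group for 32 members and array 3 the highest for 29. As deviations from the control mean, the median over the members was -0.088, -0.13 and -0.074 on Cre-labelled arrays 1, 2 and 3, and 0.0035, 0.013 and -0.016 on the 3 controls. The same medians over all genes tested were 0.037, 0.0042 and 0.014 on the Cre-labelled arrays. The median of the members therefore lay below that of all genes on each of the 3 arrays. Dim genes lay higher: with a mean log2 value from 7 to 8, the median on Cre-labelled array 2 was 0.18. From 11 to 12, where 20 members lay, the medians of all genes were -0.023, -0.062 and -0.012 on Cre-labelled arrays 1, 2 and 3.

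**Figure D2:**
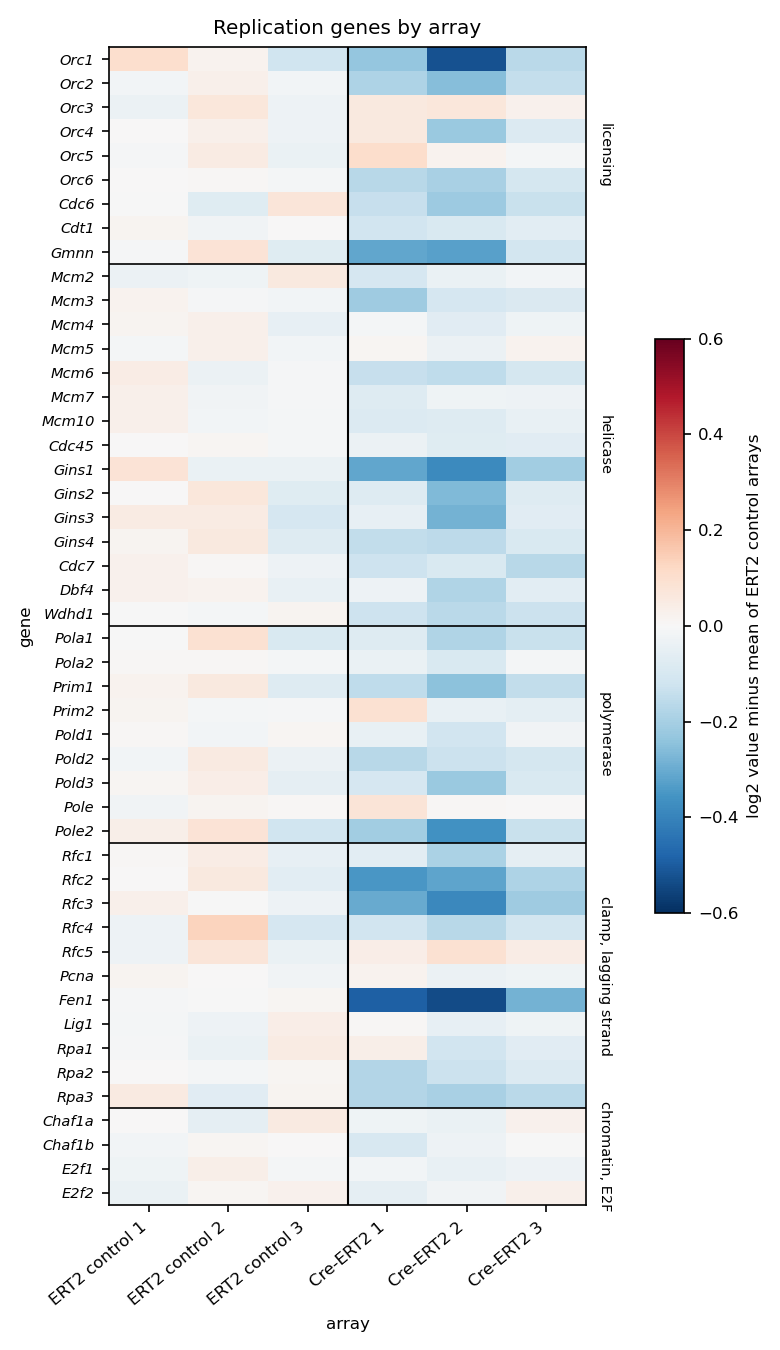
Log2 value of each replication gene (rows, ordered by role) on each array (columns) minus the mean of the 3 ERT2 control arrays; blue is lower and red higher. Cre-labelled array 2 is the bluest column, the lowest of its group for 32 of 48 members, and Fen1 is the row with the largest fall.

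The array-wide difference depended on how bright a probe set was. Among the 2578 genes with a mean log2 value above 10 and up to 11, the median log2 difference was -0.056, and on Cre-labelled array 2 the median deviation was -0.11, against -0.038 and -0.017 on arrays 1 and 3. In that range lay 11 members, with a median of -0.13. There 3 members were called lower, and 7.18% of all genes, more than the 4.13% over all ranges. From 11 to 12 there were 20 members with a median of -0.13, against -0.034 over 2189 genes. Of these, 2 members and 5.85% of all genes were called lower. From 12 to 13 there were 12 members at -0.050, against -0.013 over 1158 genes. Above 13 there were 3 members with a median of -0.014, against -0.0011 over 401 genes, of which 1.75% were called lower. From 7 to 8 and from 8 to 9 the medians of all genes lay above 0, at 0.11 and 0.10, and of the members only Gmnn lay there. In all, 38 of 48 members lay below the median of all genes in their own range of signal, and the median distance was -0.073. The part of this signal-dependent shift in the fall of single members was not tested.

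**Figure D3:**
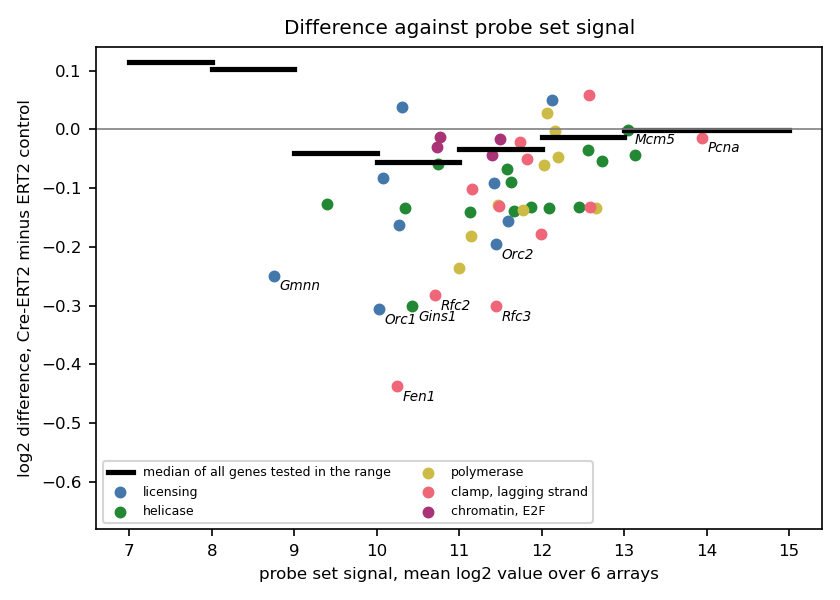
Log2 difference between the groups (y axis) against probe set signal, the mean log2 value over 6 arrays (x axis), with 1 point for each replication gene and a black bar for the median of all genes tested in each range of signal. The 5 members that fell (Fen1, Rfc3, Gins1, Rfc2 and Orc2) lie below the bar of their range, and Mcm5 and Pcna lie close to it.

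Promoter sequence was set beside these values because E2F factors, which act through a short word in the promoter, control many of these genes. The RefSeq promoter table (build GRCm38.p6), with 250 bases before to 50 after each start, held 40 of the 48 members; Gmnn, Mcm4, Gins1, Gins2, Gins4, Prim2, Pole and Rfc2 were not matched. An E2F word (TTTCCCGC, TTTGGCGC, TTTCGCGC or TTTGCCGC, on either strand; neighbouring words can overlap) stood in the promoter of 16 of 40 members (40%), against 704 of 27025 genes in the table (2.605%) and 575 of 17491 protein-coding genes (3.29%). The CCAAT box (CCAAT on either strand) stood in 23 of 40 members (57.5%), against 41.1% of all genes in the table. The changes of members with and without the word spanned much the same range, and this was not tested: the 16 with it had a median log2 difference of -0.13 and a range from -0.31 to 0.050, and the 24 without it had a median of -0.086 and a range from -0.44 to 0.058. A match is a description of the letters in this window and not a binding site.

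The 160 bases before the start are shown, 5′ to 3′ on the gene's strand, for members that fell (Rfc3, Fen1 and Orc2) and for members of the MCM ring and the clamp that did not pass (Mcm6, Mcm5 and Pcna), so that promoters with and without the word can be read side by side. Capitals mark an E2F word. Fen1 has 2 starts in the table and both are shown; of the 2 starts of Orc2 the upstream one is shown.
Rfc3, chr5:151651209-151651368, minus strand: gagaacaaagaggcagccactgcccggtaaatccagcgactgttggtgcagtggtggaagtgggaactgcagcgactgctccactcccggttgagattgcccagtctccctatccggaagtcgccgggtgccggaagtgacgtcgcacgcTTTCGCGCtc
Fen1 upstream start, chr19:10204394-10204553, minus strand: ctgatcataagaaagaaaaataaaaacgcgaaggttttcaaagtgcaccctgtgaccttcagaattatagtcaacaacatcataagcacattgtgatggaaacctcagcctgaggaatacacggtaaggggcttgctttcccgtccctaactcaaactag
Fen1 downstream start, chr19:10203922-10204081, minus strand: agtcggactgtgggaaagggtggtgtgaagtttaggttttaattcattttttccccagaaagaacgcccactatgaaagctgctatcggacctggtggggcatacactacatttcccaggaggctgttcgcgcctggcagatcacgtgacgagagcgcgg
Orc2 upstream start, chr1:58505110-58505269, minus strand: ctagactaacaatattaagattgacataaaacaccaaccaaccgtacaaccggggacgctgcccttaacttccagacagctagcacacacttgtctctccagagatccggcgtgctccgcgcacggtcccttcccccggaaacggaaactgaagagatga
Mcm6, chr1:128359706-128359865, minus strand: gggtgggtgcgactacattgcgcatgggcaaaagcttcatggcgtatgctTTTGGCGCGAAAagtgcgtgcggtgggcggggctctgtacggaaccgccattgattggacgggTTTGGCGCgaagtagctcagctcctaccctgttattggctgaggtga
Mcm5, chr8:75109349-75109508, plus strand: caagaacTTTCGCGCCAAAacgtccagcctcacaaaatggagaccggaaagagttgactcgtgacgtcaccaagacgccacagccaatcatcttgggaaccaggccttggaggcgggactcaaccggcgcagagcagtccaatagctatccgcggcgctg
Pcna, chr2:132253181-132253340, minus strand: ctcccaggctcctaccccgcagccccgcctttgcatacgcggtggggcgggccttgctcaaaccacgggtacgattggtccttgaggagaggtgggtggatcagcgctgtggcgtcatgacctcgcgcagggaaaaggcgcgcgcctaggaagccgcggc

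The word of Rfc3 began 10 bases before the start, and another (TTTCCCGC on the other strand) stood 1 base after the start, beyond the printed stretch. In Mcm6 the words overlapped 110 and 106 bases before the start, and another stood at 47; in Mcm5 overlapping words stood at 153 and 149. Rfc3, which fell, and Mcm5, at a log2 difference of -0.00053, both hold the word. Fen1, which fell, and Pcna, at -0.014, do not. Of the 5 members that fell, 1 held the word, 2 did not, and 2 (Gins1 and Rfc2) had no promoter to read. The genes shown were chosen for display after their values were seen, and the part of the word in the changes was not tested.

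Among the licensing genes, Orc2 fell and the other 8 did not pass. The call of 1 of 9 is 11.1%, against 4.13% of all genes tested. In this group 6 of 9 members had all Cre-labelled arrays below all controls (66.7%, against 17.7% of all genes tested). The median log2 difference was -0.16. Orc2 encodes a core subunit of the ORC. Its log2 value was 11.53, 11.57 and 11.52 in the controls and 11.35, 11.28 and 11.40 in the Cre-labelled arrays, so the groups did not overlap. Orc2 fell by 0.20 ± 0.048 (SE) on the log2 scale, 1.15-fold (limma adjusted p = 0.0463), from 11.54 ± 0.027 to 11.34 ± 0.057 (SD, n = 3).

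Gmnn, which encodes geminin, the protein that holds CDT1 back from loading MCM again in the same cycle, had log2 values of 8.86, 8.95 and 8.80 in the controls and 8.56, 8.55 and 8.77 in the Cre-labelled arrays. The groups did not overlap, with Cre-labelled array 3 close to the lowest control. The difference of -0.25 ± 0.070 (SE) did not pass (limma adjusted p = 0.0632). Orc1, an ORC subunit whose level varies over the cell cycle, had log2 values of 10.28, 10.20 and 10.06 in the controls and 9.95, 9.65 and 10.01 in the Cre-labelled arrays. Cre-labelled array 2 stood well below the rest for Orc1, and the difference of -0.31 ± 0.098 did not pass (limma adjusted p = 0.0809), although it was the largest of the group.

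The remaining ORC subunits went different ways. Orc6 was at 11.66 ± 0.010 in the controls and 11.51 ± 0.047 in the Cre-labelled arrays (SD, n = 3), a difference of -0.16 that did not pass (limma adjusted p = 0.0649). Orc3 had the largest difference above 0 in the group, with 12.07, 12.17 and 12.07 in the controls and 12.16, 12.17 and 12.13 in the Cre-labelled arrays, which overlap. Its difference was 0.050, with a 95% interval from -0.059 to 0.16. Orc4 (-0.083) and Orc5 (0.038) overlapped between groups as well. The signs of Orc3 and Orc5 turned to -0.052 and -0.065 when arrays were centred on their medians. The loading factors Cdc6 and Cdt1, which bring MCM to ORC, had differences of -0.16 and -0.091, with no overlap between the groups and no call (limma adjusted p = 0.0855 and 0.168).

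Of the 15 helicase genes, Gins1 fell and 14 did not pass; all 15 differences were below 0, that of Mcm5 by so little that its sign turned under other scalings. The call of 1 of 15 is 6.67%, against 4.13% of all genes tested. The median log2 difference was -0.13. All Cre-labelled arrays lay below all controls for 10 of 15 members (66.7%, against 17.7% of all genes tested). Gins1 encodes a subunit of GINS, which rides with MCM and CDC45 at the fork. Its log2 value was 10.67, 10.54 and 10.54 in the controls and 10.27, 10.20 and 10.37 in the Cre-labelled arrays. The lowest control lay above the highest Cre-labelled array for Gins1. The fall was 0.30 ± 0.061 (SE) on the log2 scale, 1.23-fold (limma adjusted p = 0.0303), from 10.58 ± 0.071 to 10.28 ± 0.087 (SD, n = 3).

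The other GINS genes had differences of -0.14 (Gins2), -0.13 (Gins3) and -0.13 (Gins4), and none of these 3 passed. Cre-labelled array 2 was the lowest value of all 6 arrays for each of them, at 10.94, 10.13 and 11.78. The groups of Gins3 overlapped (10.36, 10.13 and 10.34 against 10.46, 10.46 and 10.31 in the controls).

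The MCM genes moved little. Of Mcm2 to Mcm7, which encode the ring that unwinds DNA, 0 of 6 passed limma's test (2 at an unadjusted p under 0.05, both lower), with a median log2 difference of -0.049. Among all genes tested, 14.4% were lower at that unadjusted level. Mcm3 and Mcm6 had the largest differences, both -0.13 (limma adjusted p = 0.110 and 0.0907), with no overlap between their groups. Mcm6 was at 12.56, 12.48 and 12.51 in the controls and at 12.38, 12.37 and 12.41 in the Cre-labelled arrays. Mcm2, Mcm4 and Mcm7 had differences of -0.054, -0.034 and -0.044.

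Mcm5 was level between the groups, at 13.04, 13.08 and 13.04 in the controls and 13.06, 13.01 and 13.07 in the Cre-labelled arrays, with a 95% interval of the difference from -0.10 to 0.099. That interval leaves out a fall of the size seen for Gins1, although the difference between these genes was not tested. The 2 genes differ in signal: above 13, where Mcm5 lay, the median difference of all genes was -0.0011. From 10 to 11, where Gins1 lay, it was -0.056. Mcm10, which helps to activate the helicase, and Cdc45 had differences of -0.068 and -0.059, and their groups did not overlap by a narrow margin.

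Wdhd1, which encodes a protein that ties the helicase to polymerase alpha, had log2 values of 11.74, 11.72 and 11.75 in the controls and 11.61, 11.57 and 11.61 in the Cre-labelled arrays. Both groups were tight (SD 0.014 and 0.020, n = 3) and well apart, but the difference of -0.14 ± 0.042 (SE) did not pass (limma adjusted p = 0.0707). The origin-firing kinase gene Cdc7 was at 9.48, 9.46 and 9.42 in the controls and 9.33, 9.37 and 9.29 in the Cre-labelled arrays, a difference of -0.13 (adjusted p = 0.0974 by limma). Its activator gene Dbf4 overlapped between the groups, with a difference of -0.090.

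Of the 9 polymerase genes, 0 passed limma's test (4 at an unadjusted p under 0.05, all lower), with a median log2 difference of -0.13. At that unadjusted level 14.4% of all genes tested were lower. The smallest p was that of Prim1, which encodes the catalytic subunit of primase, the enzyme that lays the RNA primer. Prim1 was at 11.25, 11.29 and 11.15 in the controls and 11.08, 10.98 and 11.08 in the Cre-labelled arrays, without overlap. The difference was -0.18 ± 0.054 (SE, limma adjusted p = 0.0695). Its partner Prim2 was level, with a difference of -0.0034 and a 95% interval from -0.12 to 0.12, and its sign turned after loess between arrays and with array weights; Cre-labelled array 1 was the highest of all 6 for Prim2 (12.25).

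The subunits of polymerase alpha, which extends the primer, had differences of -0.13 (Pola1) and -0.047 (Pola2), and both overlapped between groups. Those of polymerase delta, the main lagging-strand enzyme, were at -0.061 (Pold1), -0.13 (Pold2) and -0.14 (Pold3), and in all 3 of these genes the groups did not overlap. Over all genes tested, 17.7% had all Cre-labelled arrays below all controls. For polymerase epsilon, the leading-strand enzyme, the catalytic gene Pole had the only difference above 0 among the polymerases (0.027, with a 95% interval from -0.075 to 0.13, and -0.075 after centring on array medians). Pole was at 12.03, 12.07 and 12.06 in the controls and 12.13, 12.06 and 12.05 in the Cre-labelled arrays, which overlap. The second subunit, Pole2, had the largest difference of the polymerase genes, -0.24 ± 0.075 (SE), and did not pass (limma adjusted p = 0.0809). Its values were 11.15, 11.20 and 11.00 in the controls and 10.91, 10.75 and 10.99 in the Cre-labelled arrays, so that Cre-labelled array 3 nearly met the lowest control.

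The clamp and lagging-strand group held 3 of the 5 members that fell: Fen1, Rfc3 and Rfc2, of 11 genes, with 8 that did not pass. This is 27.3% of the group, against 4.13% of all genes tested. Its median log2 difference, -0.13, was close to those of the helicase and polymerase groups, and differences between role groups were not tested. Fen1 encodes the flap endonuclease that trims the displaced end of each Okazaki fragment. Its log2 value was 10.45, 10.46 and 10.47 in the controls and 9.97, 9.92 and 10.18 in the Cre-labelled arrays. The controls lay close together and the Cre-labelled arrays were all lower, with array 3 nearest to the controls. Fen1 fell by 0.44 ± 0.068 (SE) on the log2 scale, to 73.9% of the control value (limma adjusted p = 0.0143), from 10.46 ± 0.0095 to 10.03 ± 0.14 (SD, n = 3).

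The clamp loader, replication factor C, opens the PCNA ring and sets it on the primed strand. Rfc3, a small subunit of it, was at 11.62, 11.59 and 11.56 in the controls and 11.29, 11.21 and 11.38 in the Cre-labelled arrays. Rfc3 fell by 0.30 ± 0.054 (SE), 1.23-fold (limma adjusted p = 0.0227), from 11.59 ± 0.031 to 11.29 ± 0.086 (SD, n = 3). Rfc2 was at 10.85, 10.90 and 10.78 in the controls and 10.50, 10.53 and 10.66 in the Cre-labelled arrays, and it fell by 0.28 ± 0.058 (SE), 1.22-fold (limma adjusted p = 0.0320), from 10.84 ± 0.061 to 10.56 ± 0.085 (SD, n = 3). In neither gene did the groups overlap, and array 3 was the highest of the Cre-labelled arrays in both.

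The other subunits of the same complex did not pass. Rfc1, the large subunit, had a difference of -0.10 and Rfc4 one of -0.13, without overlap between groups. Rfc5 lay above 0, with 12.52, 12.62 and 12.51 in the controls and 12.59, 12.64 and 12.59 in the Cre-labelled arrays. Its groups overlapped, and its difference of 0.058, the highest of all 48 members, had a 95% interval from -0.054 to 0.17 and turned to -0.044 after centring on array medians. The clamp gene Pcna itself was level at 13.96, 13.95 and 13.93 in the controls and 13.97, 13.91 and 13.92 in the Cre-labelled arrays. Over the 401 genes above 13 the median difference was -0.0011, and 1.75% were called lower. Both probe sets of Pcna gave a difference of -0.014.

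Lig1, which encodes the ligase that seals Okazaki fragments after FEN1 has acted, had a difference of -0.022 with a 95% interval from -0.12 to 0.079, and its sign turned after loess between arrays. The genes of replication protein A, which coats single-stranded DNA, were at -0.051 (Rpa1), -0.13 (Rpa2) and -0.18 (Rpa3). Rpa3 was at 12.13, 12.01 and 12.09 in the controls and 11.90, 11.88 and 11.92 in the Cre-labelled arrays, without overlap. Its adjusted p of 0.0565 by limma was the smallest among members that did not pass, and its second probe set gave a difference of -0.098.

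**Figure D4:**
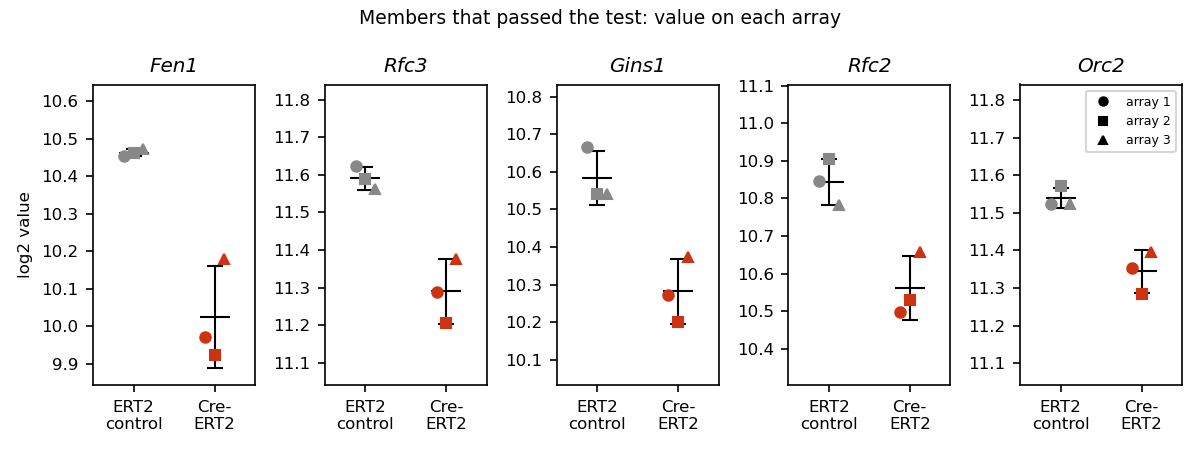
Log2 value on each array (points; circle, square and triangle for arrays 1, 2 and 3) for the 5 members with an adjusted p under 0.05, with the mean and SD of each group of 3 arrays. In all 5 genes the 3 Cre-labelled arrays (red) lie below the 3 ERT2 controls (grey), as they do for 17.7% of all genes tested. The 5 genes were picked for passing the test, which favours groups that do not overlap. Array 3 is the highest of the red points, and each panel spans the same height on the log2 scale.

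The chromatin assembly and E2F genes showed the smallest differences. None of Chaf1a and Chaf1b, which encode subunits of the histone chaperone that loads histones behind the fork, or of E2f1 and E2f2, which encode activators of S phase genes, passed limma's test (0 of 4 at an unadjusted p under 0.05), and the groups overlapped in all 4. E2f1 was at 10.72, 10.78 and 10.73 in the controls and 10.73, 10.70 and 10.71 in the Cre-labelled arrays, a difference of -0.031 with a 95% interval from -0.13 to 0.068. Chaf1b was at 11.41, 11.44 and 11.43 in the controls and 11.33, 11.39 and 11.42 in the Cre-labelled arrays, a difference of -0.043 (interval from -0.15 to 0.060). Chaf1a and E2f2 lay at -0.013 and -0.016, and the signs of Chaf1a, E2f1 and E2f2 turned after quantile normalization and after loess between arrays.

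Other genes of DNA replication and its supply were also more often lower than higher. Of a further list of 71 genes, 70 were on the array and tested. Of these, 6 were lower, 0 higher and 64 did not pass, with a median log2 difference of -0.068. At an unadjusted p under 0.05 by limma, 20 were lower (28.6%, against 14.4% of all genes tested) and 1 higher (Rbl2). Nasp, which encodes a carrier of new histones, fell by 0.35 ± 0.073 (SE), and Samhd1, which encodes a hydrolase that breaks down DNA precursors, fell by 0.29 ± 0.062. Dut, which encodes the enzyme that keeps uracil out of DNA, fell by 0.26 ± 0.054, and Rnaseh2b, of the nuclease that removes ribonucleotides from DNA, by 0.23 ± 0.054. The kinase gene Cdk2, which drives S phase, fell by 0.20 ± 0.043, and the E2F family gene E2f5 by 0.21 ± 0.053. Cdk2 was at 11.60 on each of the 3 controls and at 11.40, 11.37 and 11.44 on the Cre-labelled arrays. The limma adjusted p of these 6 genes ranged from 0.0340 to 0.0485.

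Against 4.13% of all genes tested, 8.57% of this list were lower. By step, 2 of 9 nucleotide supply genes were lower, 1 of 25 other replication factors (4%, close to the share of all genes), 1 of 11 chromatin copying genes, 2 of 17 cyclin and E2F family genes and 0 of 8 genes of topology and cohesion (1 at an unadjusted p under 0.05 by limma). The ribonucleotide reductase gene Rrm2 had a difference of -0.11 that did not pass (limma adjusted p = 0.124), and the cyclin E gene Ccne1 one of -0.17 (adjusted p = 0.0724 by limma). Ccna2, which encodes cyclin A, lay above the controls on all 3 Cre-labelled arrays, by 0.045, and did not pass.

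Which members passed depended on single arrays, as did the share of all genes called lower, which was 4.13% with all 6 arrays. Without ERT2 control array 1, ERT2 control array 2 or Cre-labelled array 1, limma called 0 members (13, 15 and 17, in that order, at an unadjusted p under 0.05, all lower), while 0.508%, 0.796% and 0.589% of all genes were called lower. In the fit to all arrays 14.4% of all genes were lower at that unadjusted level. That share was not taken for the other fits. Without ERT2 control array 3 it called 1 (Fen1; 1.24% of all genes), and without Cre-labelled array 2 it called 2 (Fen1 and Rfc3; 1.85% of all genes). Without Cre-labelled array 3 it called 9, the 5 above with Orc1, Orc6, Gmnn and Pole2, and 9.0% of all genes. The count of members thus rose and fell with that of all genes. Without ERT2 control array 2 the median of the members was -0.082, and without Cre-labelled array 2 it was -0.070, the smallest of the 6 such fits. The further list had 6 members lower in the fit to all arrays, 9 without Cre-labelled array 3 and 0 without any other array (14 to 21 lower at an unadjusted p under 0.05).

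The scaling of the arrays changed either the count of members called or their distance from other genes. When arrays were centred on their medians, the median of all genes moved from 0.026 to -0.077, the members' median to -0.22, and 24 of 48 members were lower, against 18.7% of all genes; all genes called then split into 223 higher and 2797 lower, in place of 523 and 617. Relative to the median of all genes, the members' median was -0.14 as deposited and also after centring, which shifts all genes of an array alike and so cannot change it, and it was -0.083 after quantile normalization and -0.081 after loess between arrays. The same 5 members were called after quantile normalization and after loess.

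**Figure D5:**
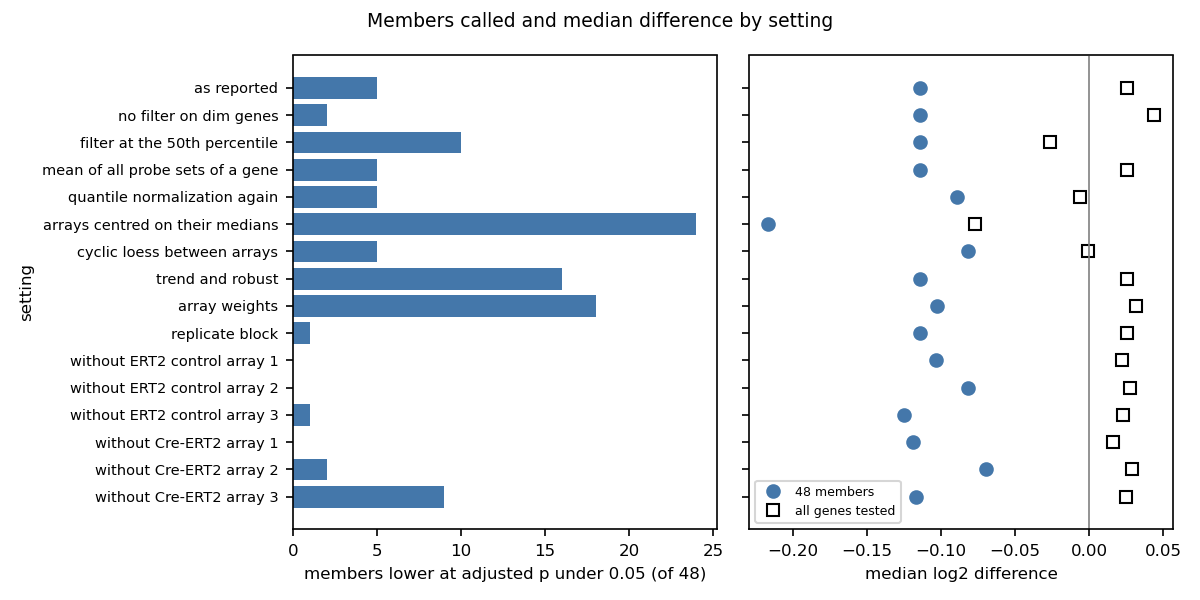
Number of the 48 members lower at an adjusted p under 0.05 (left, bars from 0) and the median log2 difference of the members and of all genes tested (right) for each setting of filter, scaling, model or arrays. The bars run from 0 to 24, while the members' median lies below that of all genes in each of the 16 settings shown. The settings reuse the same arrays and are no independent repeats. Centring, trend and robust estimation and the replicate block cannot change the distance between these medians.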

How the data were processed

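The deposited values, made by the authors, are log2 values for 35556 probe sets on each of 6 arrays. The submitters' processing notes list RMA (background correction, normalization between arrays and a summary over probes) and Partek 6.5, with no settings or order. The platform's annotation gave 1 symbol to 21789 probe sets (19938 genes), several to 1621 and none to 12146. A mean under the 25th percentile removed 4985 genes and left 14953. Arrays hold no counts, so their number limits the precision.

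Cre-labelled arrays were compared with ERT2 controls by limma 3.58.1 (R 4.3.3; lmFit, then eBayes; two-sided, 4.31 prior degrees of freedom, no covariates). All p-values were adjusted by Benjamini and Hochberg's method across every gene tested. Standard errors and 95% intervals come from the moderated fit. In simulated arrays for this comparison (14953 genes), 40% of 100 genes shifted by 0.3 and 91% of 100 shifted by 0.5 were called, beside 6 false calls. The simulated noise was independent between genes and arrays, without the shifts by array or signal of the real arrays. The real rates of missed and false calls may therefore differ. The members and all lists were chosen with earlier results of these data known. By rule every member was named, with full values for those that passed and, within each role, for the 2 smallest p and the largest rise; from the further list those that passed were named, and other genes were picked after their values were seen, as were the ranges of signal, the within-array differences and the promoters shown. Alternatives changed the filter, the probe sets per gene, the scaling, the model, the replicate block or the arrays used. Promoters came from RefSeq. Python 3.11.15, pandas 2.3.3 and matplotlib 3.10.9 made the tables and figures.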

Additional observations from a re-analysis of the deposited data

How the results depend on the processing

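The 48 members gave 0 higher calls, and the further list 0, under each of the 15 alternatives. Members lower numbered 5 as reported, 2 without the filter on dim genes, 10 with the filter at the 50th percentile, 24 after centring on array medians, 16 with trend and robust estimation, 18 with array weights, and between 0 and 9 with an array left out. Over the same settings the share of all genes called lower was 4.13% as reported, 1.25% without the filter, 10.1% at the 50th percentile, 18.7% after centring, 8.68% with trend and robust estimation, 11.5% with array weights, 0.669% with the replicate block and between 0.508% and 9.0% with an array left out, so the count of members moved with it. Genes of the further list numbered 6 lower as reported, 0 without the filter (20 at an unadjusted p under 0.05 by limma), 25 after centring, 15 with trend and robust estimation, 14 with array weights, and between 0 and 9 with an array left out. All genes called numbered 1140 as reported, 437 without the filter, 3020 after centring, 2147 with trend and robust estimation, 3993 with array weights and between 116 and 3042 with an array left out. With the replicate number as a block, 1 member (Fen1, adjusted p = 0.0459 by limma), 0 genes of the further list (18 lower at an unadjusted p under 0.05) and 147 genes in all were called. The share of all genes lower at that unadjusted level was 14.4% in the fit as reported and was not taken for the alternatives. The unadjusted counts of the alternatives therefore have no share beside them. The replicate numbers share no stated origin, and deviations of same-numbered arrays correlated at 0.069, -0.174 and -0.398. Cre-labelled array 2 correlated best with control 3 (0.432) and array 3 with control 1 (0.281). Deviations from a mean of 3 arrays are tied to one another, so these values cannot tell whether same-numbered arrays shared a culture or batch. With 50th percentile filtering 1563 genes were called, of 9969 tested. Fen1 was called in each of the 9 alternatives that kept all arrays and in 3 of 6 with an array left out. Rfc3 was called in 8 of 9 and 2 of 6, and Gins1, Rfc2 and Orc2 each in 7 of 9 and 1 of 6.

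Signs turned only for genes near 0 that did not pass. After centring, Orc3 was at -0.052, Orc5 at -0.065, Pole at -0.075 and Rfc5 at -0.044. After quantile normalization, Mcm5 was at 0.016, Chaf1a at 0.020, E2f1 at 0.0041 and E2f2 at 0.0048. After loess, Mcm5 was at 0.012, Prim2 at 0.022, Lig1 at 0.0075, Chaf1a at 0.022, E2f1 at 0.0035 and E2f2 at 0.016. With array weights, Mcm5 was at 0.015 and Prim2 at 0.022. With an array left out, Mcm5 ranged from -0.011 to 0.017, Prim2 from -0.052 to 0.024, Chaf1a from -0.041 to 0.013 and E2f2 from -0.038 to 0.0033. Causes were not tested.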

Other observations

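Differences taken within each array, which a shift of the whole array leaves unchanged, were computed for 4 pairs of members of 1 complex or step, chosen after their values were seen and therefore given without a test. For the clamp loader, the log2 value of Rfc3 minus that of Rfc5 was -0.90, -1.03 and -0.95 in the ERT2 control arrays and -1.30, -1.44 and -1.22 in the Cre-labelled arrays. Within ORC, Orc2 minus Orc3 was -0.54, -0.60 and -0.55 in the controls and -0.81, -0.89 and -0.73 in the Cre-labelled arrays. Within the helicase, Gins1 minus Mcm5 was -2.37, -2.54 and -2.49 in the controls and -2.79, -2.81 and -2.70 in the Cre-labelled arrays. On the lagging strand, Fen1 minus Lig1 was -1.29, -1.26 and -1.32 in the controls and -1.79, -1.78 and -1.55 in the Cre-labelled arrays. Each pair sets a member that fell against one picked for lying near or above 0, so that the groups do not overlap in these pairs was largely fixed by the choice and supports nothing. The subtraction also leaves in any shift that depends on signal: the median log2 difference of all genes was -0.056 in the range of Gins1 and Fen1, -0.034 in that of Rfc3, Orc2 and Lig1, -0.013 in that of Rfc5 and Orc3 and -0.0011 in that of Mcm5. The level of one probe set against another carries no meaning here, only the change between groups.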
